A study of Mus musculus with 22 samples.

Results

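Gastruloids are aggregates of mouse embryonic stem cells that elongate in culture and form spinal cord, somites, gut endoderm and other cell types of the early embryo trunk. Day 4.5 was compared with day 4 in the last of 3 MULTI-seq experiments, called MULTI-seq 3 here. Cells were taken where the authors' cell table gave the barcode of 1 gastruloid and the day 4 or 4.5. This gave 32 of the 136 gastruloids of the series and 18338 of its 53730 cells with a gastruloid barcode: 16 gastruloids of day 4 with 13750 cells and 16 of day 4.5 with 4588 cells. Every gastruloid was unmodified E14Tg2A, 1 embryonic stem cell line, and no group carried a deletion or a transgene. Per the labels' protocols each began as 300 cells left to aggregate for 48 h and then treated with 3 µM CHIR99021, which blocks the kinase GSK3 and so turns on Wnt signalling. In MULTI-seq the cells of each gastruloid receive their own lipid-anchored DNA barcode before they are mixed, so that single-cell RNA libraries from a mixed suspension can be sorted back to their gastruloid. The gastruloids were picked by the authors as representative, not at random.

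The days were captured in different pools. Day 4 shared its pool and 4 lanes with 16 gastruloids of day 3.5, and day 4.5 shared its pool and 3 lanes with 16 gastruloids of day 5. A difference between day 4 and day 4.5 is therefore also a difference between pools, and the effects of day and pool cannot be told apart in MULTI-seq 3. Pool B of MULTI-seq 2 held both days in the same lanes, and its 11 gastruloids of day 4 and 12 of day 4.5 with at least 30 cells are set beside the main values. It shares no gastruloid with MULTI-seq 3, but its culture and library preparation were also different.

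As background, the trunk of a vertebrate embryo is laid down from head to tail by a growth zone at its posterior end. Neuromesodermal progenitors (NMPs) there feed both the spinal cord and the presomitic mesoderm (PSM), whose cells ripen from posterior to anterior and bud off as somites under a segmentation clock. Hox genes of the 4 clusters are switched on in the order in which they lie on the chromosome, low paralog numbers first, so that their state gives the axial level of a cell.

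A gastruloid of day 4 gave 390 to 1397 cells (median 854) and 14647539 to 57333371 UMIs (unique molecular identifiers, 1 per captured RNA molecule). A gastruloid of day 4.5 gave 122 to 445 cells (median 279) and 4193451 to 14364161 UMIs. Per cell the depth was close: over gastruloids the median was 31422 UMIs (day 4) and 30478 UMIs (day 4.5) (two-sided permutation test, p = 0.0865). MULTI-seq barcodes marked 4.63% to 11.1% of the final cells of a lane as doublets, which were left out, and pairs of lanes shared 0 to 15 cell barcodes. The replicates are gastruloids of 1 line in 1 pool per day, so the p-values below measure the spread between gastruloids of a pool.

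The first question was which cell types the gastruloids held on each day. Early and Late Spinal Cord, Mature Somites, NMPs and Late Anterior PSM took larger shares of the cells at day 4.5, and Early Posterior and Early Anterior PSM, Late Nascent Mesoderm, Cardiopharyngeal Mesoderm, Caudal Epiblast and Mature Endoderm took smaller ones. Of 17 cell type names with a mean share of at least 1%, 11 (64.7%) passed the test, 5 higher and 6 lower at day 4.5 (two-sided permutation tests of the mean percent with 100000 resamples, Benjamini-Hochberg adjusted over the 17). Shares of a gastruloid sum to its whole, so they do not move independently.

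Early Spinal Cord made up 0% to 26.3% of a gastruloid at day 4 (median 0.807%) and 2.24% to 47.5% at day 4.5 (median 14.2%). The groups overlapped, mostly through 2 day 4 gastruloids, those with the fewest cells (390 and 457), which held 25.6% and 26.3%. The next highest of day 4, at 2.35%, was just above the lowest of day 4.5. The mean was 3.98% ± 8.61 and then 22.1% ± 15.1 (± is the SD over 16 gastruloids; by permutation, adjusted p = 0.000918). Late Spinal Cord rose from 1.37% ± 3.74 to 14.2% ± 15.9 (permutation test, n = 16 each, adjusted p = 0.00873). At day 4.5 its shares fell into a low set up to 2.78% and a high set from 21.1%, and the median of 2.23% lay in the low set. Mature Somites went from 6.33% ± 9.54 to 19.7% ± 15.4 (adjusted p = 0.0109 in the permutation test, n = 16 each), with medians of 1.31% and 19.5% and wide overlap. NMPs rose from 3.48% ± 2.64 to 7.67% ± 4.50 (adjusted p = 0.00738) and Late Anterior PSM from 2.47% ± 1.91 to 4.57% ± 2.70 (adjusted p = 0.0276) in the same permutation test.

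Of the names that shrank, Early Posterior PSM covered 1.497% to 32.0% of day 4 gastruloids (median 8.82%) and 0% to 3.09% of day 4.5 gastruloids (median 1.27%), which left only the lowest day 4 gastruloids within the day 4.5 range. The mean fell from 14.3% ± 10.7 to 1.32% ± 0.924 (permutation test, n = 16 each, adjusted p = 5.67e-05). In that permutation test Early Anterior PSM went down from 12.9% ± 8.39 to 1.36% ± 1.07 (adjusted p = 8.5e-05). Late Nascent Mesoderm, cells that have just left the streak, shrank from a mean of 8.59% ± 6.93 to one of 0.506% ± 0.823 (permutation test, n = 16 each, adjusted p = 5.67e-05). Caudal Epiblast went from 5.46% ± 3.82 to 1.19% ± 1.20 (adjusted p = 5.67e-05), Cardiopharyngeal Mesoderm from 6.81% ± 9.91 to 0.294% ± 0.723 (adjusted p = 0.00575) and Mature Endoderm from 7.73% ± 5.50 to 3.29% ± 4.19 (adjusted p = 0.0236). Late Posterior PSM did not pass, with 8.84% ± 5.36 at day 4 and 11.0% ± 9.45 at day 4.5 (permutation test, n = 16 each, adjusted p = 0.474), nor did Somites, with 3.05% ± 2.44 and 3.78% ± 2.29 (adjusted p = 0.469). In a count model of the cell numbers (edgeR's quasi-likelihood test with Benjamini-Hochberg adjustment) 8 of the 11 names passed, and Late Anterior PSM, Mature Endoderm and Mature Somites did not (adjusted p of 0.155, 0.147 and 0.105).

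In pool B of MULTI-seq 2, Early Spinal Cord had means of 8.21% at day 4 and 20.6% at day 4.5, Early Posterior PSM 14.3% and 2.20%, and Late Nascent Mesoderm 5.73% and 0.406%. There, 7 of 19 names passed, 1 higher and 6 lower. The mean of Head Mesoderm moved in opposite directions, from 4.59% to 1.51% in MULTI-seq 3 and from 1.20% to 4.82% in pool B. That of Late Posterior PSM did so too, from 8.84% to 11.0% and from 8.89% to 8.30%. Neither of these 2 names passed in MULTI-seq 3. The plot of cell type shares gives every gastruloid of MULTI-seq 3.

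**Figure D1:**
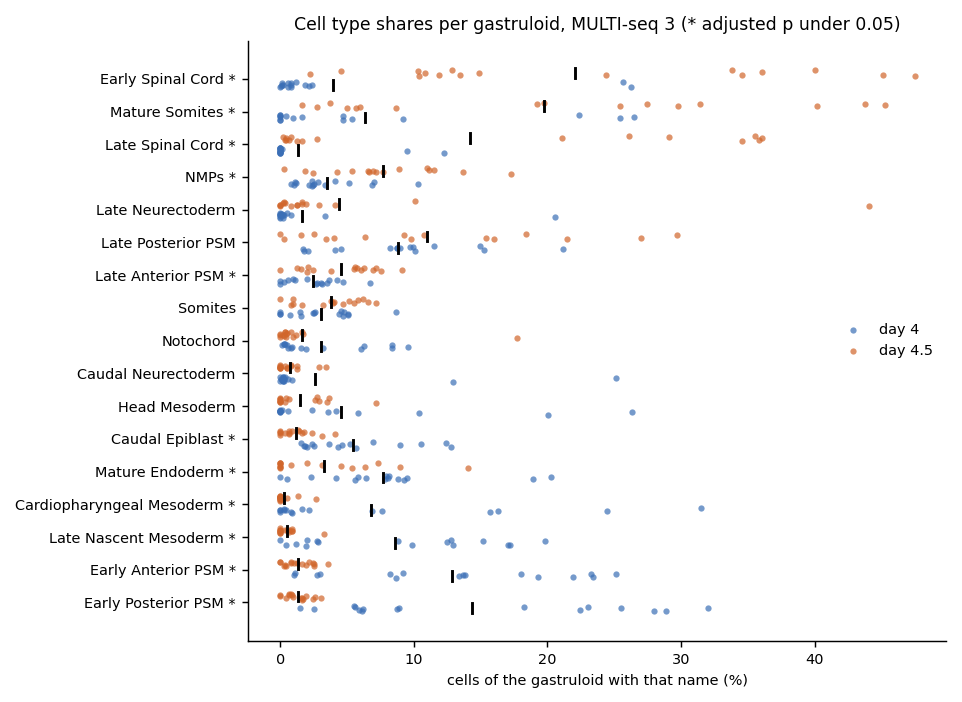
Share of the cells of each gastruloid that carry a cell type name (x axis, percent) for 17 names of MULTI-seq 3; each point is 1 gastruloid, blue for day 4 and orange for day 4.5, the black bar is the mean of the 16, and * marks an adjusted p under 0.05. The blue points of the PSM and nascent mesoderm names at the bottom reach 32.0% while the orange ones stay at or below 3.59%, and the spinal cord and somite names at the top have the orange points spread to 47.5%.

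UMIs were then summed over all cells of a gastruloid to ask which genes differed between the days. The posterior Hox genes and neural genes rose at day 4.5, and genes of the primitive streak, pluripotency and cardiopharyngeal mesoderm fell. Of 12843 genes tested, 8495 (66.1%) passed edgeR's quasi-likelihood test at a Benjamini-Hochberg adjusted p under 0.05, 4158 higher (32.4%) and 4337 lower (33.8%) at day 4.5. Most of these differences were small: the median absolute log2 change over all genes was 0.276, and 675 genes (5.26%) passed with at least a 2-fold change, 241 higher and 434 lower. Folds were scaled by TMM (trimmed mean of M-values), under which the median gene lay at -0.02 on the log2 scale; scaled by the plain UMI totals it lay at -0.22, and 24.5% of the called genes were then higher instead of 48.9%. In bulk sums such as these, a change in the number of cells of a type and a change in RNA per cell cannot be told apart.

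Among the Hox genes, 10 of 11 tested genes of paralog groups 6 to 9 rose and 0 fell, with a median log2 change of 1.59, and 9 of 15 of groups 1 to 5 rose and 1 fell (median 0.60). The background rate of genes called higher was 32.4%. Levels are given as CPM, the UMIs of a gene per 1000000 UMIs of the sum. Hoxa9, a gene of trunk and tail levels, stood at 0.160 to 5.67 CPM at day 4 (median 1.497) and at 6.88 to 80.0 at day 4.5 (median 26.8). The groups did not overlap, and the log2 change was 4.06 ± 0.42 (SE, edgeR's quasi-likelihood test, adjusted p = 3.41e-10). Among all 12843 genes tested in whole gastruloids, the CPM ranges of the days did not overlap for 1828 (14.2%). Hoxa7 went from 1.69 to 22.5 (median 4.21) at day 4 to 22.8 to 106 (median 52.0) at day 4.5, again with no overlap but with the nearest gastruloids almost level (log2 change 3.32 ± 0.34, adjusted p = 2.56e-10). Hoxc9 was at 0.453 to 31.4 at day 4 and 16.1 to 156 at day 4.5, with medians of 5.02 and 53.2 and a few day 4 gastruloids inside the later range (3.26 ± 0.46, adjusted p = 1.75e-07).

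Hoxc10, the only gene of groups 10 to 13 with enough UMIs to be tested, was nearly silent at day 4, with 0.0235 to 0.968 CPM (median 0.244). At day 4.5 it stood at 1.11 to 8.95 (median 3.17), above every day 4 gastruloid (log2 change 3.59 ± 0.43, edgeR's quasi-likelihood test, adjusted p = 8.21e-09). It was 1 of 12 genes of these groups, and it passed the filter on low counts mainly through day 4.5. The test could therefore hardly have given a fall, and the rise of Hoxc10 is a description. Hoxb1, a gene of the anterior end of its cluster, was the member that fell, from 17.1 to 108 (median 51.1) to 2.30 to 53.9 (median 25.3), with most gastruloids of both days in a shared range (-0.87 ± 0.32, adjusted p = 0.0163). In pool B of MULTI-seq 2 the change was 3.48 ± 0.55 for Hoxa9 (adjusted p = 0.000397), 2.23 ± 0.42 for Hoxa7 (adjusted p = 0.00192) and 1.93 for Hoxc9 (adjusted p = 0.0188) in the same edgeR test. These were the 3 of 11 genes of groups 6 to 9 that passed there (median over the 11 of 0.67, lowest -0.34), and 1 of 15 of groups 1 to 5 passed, higher (median 0.32), where 3.03% of all genes were called higher.

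**Figure D2:**
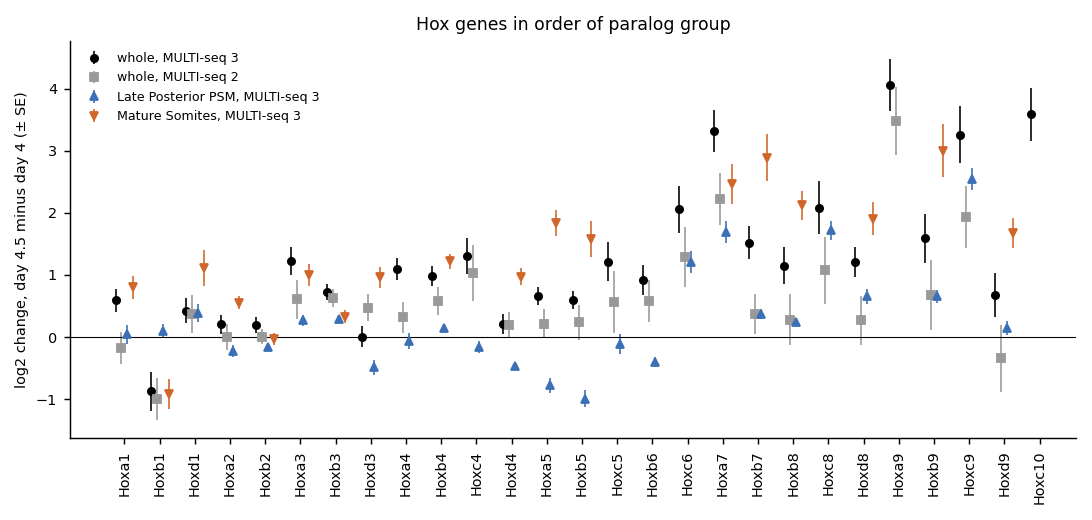
Log2 change, day 4.5 minus day 4, with its standard error (y axis), for the Hox genes tested, ordered by paralog group from left to right (x axis). Black circles are whole gastruloids of MULTI-seq 3, grey squares whole gastruloids of MULTI-seq 2, and blue and orange triangles the Late Posterior PSM and Mature Somites cells of MULTI-seq 3; the black circles climb from -0.87 at Hoxb1 to 4.06 at Hoxa9, and the blue triangles dip below 0 at Hoxa5 and Hoxb5 where the orange ones lie above 1.

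Neural genes rose with the spinal cord shares: 11 of 16 tested neural genes were higher and 0 lower (median log2 change 1.22), and 9 higher and 2 lower when scaled by UMI totals. Of all genes 32.4% were called higher. A neural gene low at day 4 can pass the filter on low counts through day 4.5 alone and could hardly be counted as lower. Hes5, a Notch target of neural progenitors, was at 4.91 to 48.2 CPM at day 4 (median 18.1) and at 35.2 to 263 at day 4.5 (median 74.6). Only the top of the day 4 range reached the day 4.5 gastruloids, and the log2 change was 2.35 ± 0.30 (edgeR's quasi-likelihood test, adjusted p = 2.45e-08). Crabp2, a carrier of retinoic acid counted in the retinoic acid list, went from a median of 39.0 to one of 121 (2.08 ± 0.30, adjusted p = 2.38e-07), Sox2, a factor of neural progenitors, from 16.5 to 53.2 (1.88 ± 0.46, adjusted p = 0.000542), and Pax6, a neural patterning factor, rose by 2.28 ± 0.46 (adjusted p = 5.74e-05).

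Genes of the primitive streak and of pluripotency fell: 17 of 21 tested were lower and 0 higher, with a median log2 change of -1.88. Of all genes 33.8% were called lower. Pou5f1, which encodes the pluripotency factor OCT4, went from 23.5 to 140 CPM at day 4 (median 36.0) to 3.28 to 17.0 at day 4.5 (median 6.64), with no overlap (log2 change -2.43 ± 0.27, edgeR's quasi-likelihood test, adjusted p = 1.16e-09). Lhx1, a factor of streak-derived mesendoderm, was at 2.25 to 224 (median 75.8) and then at 0 to 17.0 (median 6.59), where all but 2 of the day 4 gastruloids lay above the later ones (-3.44 ± 0.53, adjusted p = 9.59e-07). Eomes, a T-box factor of the streak, dropped from a median of 17.1 to one of 0.478 (-4.24 ± 0.63, adjusted p = 5.97e-07). It was low at day 4.5 and can pass the filter on low counts through day 4 alone, so its fall is a description. A gene of this kind could hardly be counted as higher, which limits the count of 0 higher in the list.

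Cardiopharyngeal genes were lower in 7 of 9 tested and higher in 0 (median -1.60). The limit of the filter on low counts also holds for any of them that was low at day 4.5. Of these, Isl1, a factor of heart progenitors, fell by 1.94 ± 0.36 (edgeR's quasi-likelihood test, adjusted p = 1.63e-05) and Foxf1, a factor of lateral mesoderm, by 1.97 ± 0.41 (adjusted p = 9.5e-05). Of 20 endoderm genes 8 were lower and 2 higher (median -0.89), close to the 33.8% of all genes called lower. Gata4, a cardiac and endodermal factor counted in the endoderm list, went from 0.546 to 20.9 CPM (median 5.33) to 0 to 1.09 (median 0.803), so that only the lowest day 4 gastruloids met the later range (log2 change -3.39 ± 0.44, edgeR's quasi-likelihood test, adjusted p = 3.47e-08). Of 15 BMP pathway genes 9 were lower and 1 higher (median -0.88). Somite genes were higher in 7 of 21 and lower in 1 (median 0.68), close to the background rate of 32.4% called higher. These lists move with cell types whose shares also changed, and a model with cell shares was run for neural cells only. With their share added to the edgeR model 8001 genes passed. Of 149 named genes 15 kept their direction but no longer passed, and 6 kept it and newly passed. Kdr, Mesp2 and Irx3, called before, turned direction. The other 125 kept their direction and call, or were not called before and turned direction.

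The counts of the other lists in whole gastruloids stand beside 32.4% of all genes called higher and 33.8% called lower. Of 21 Wnt targets and feedback genes 4 were higher and 8 lower (3 and 13 when scaled by UMI totals), of 25 FGF genes 4 and 9 (3 and 9), and of 18 retinoic acid genes 5 and 4 (4 and 7). Growth zone and NMP genes were higher in 6 of 19 and lower in 2 (5 and 5 when scaled by UMI totals), and PSM and clock genes in 3 and 2 of 22 (2 and 7 when scaled by UMI totals). Cell cycle genes were higher in 17 of 32 and lower in 7, which turned to 7 and 12 when scaled by UMI totals. Of 30 glycolysis and hypoxia genes 6 were higher and 10 lower, against 2 and 20 when scaled by UMI totals. Of 27 matrix genes 4 were higher and 9 lower (3 and 14 by that scaling), of 13 developmental timing genes 2 and 6 (1 and 9), of 8 neuron genes 4 and 1 (4 and 3), and of 4 endothelial and blood genes 2 and 2 (1 and 2). Genes of dissociation stress were higher in 5 of 19 and lower in 4 (3 and 8 when scaled by UMI totals).

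Cyp26a1, the enzyme that degrades retinoic acid in the growth zone, fell by 2.33 ± 0.42 on the log2 scale, and Aldh1a2, the enzyme that makes it in somites, went from 65.0 to 643 CPM (median 374) to 7.66 to 209 (median 111), with overlap (-1.54 ± 0.35, edgeR's quasi-likelihood test). Aldh1a2 is itself a somite marker, and within Mature Somites cells it also fell, from 153 to 390 (median 331) to 115 to 303 (median 145), with overlap (-0.69 ± 0.18, adjusted p = 0.00249).

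Imprinted genes were lower in 14 of 23 and higher in 7 (median -0.36), beside 33.8% of all genes lower and 32.4% higher. Peg10, an imprinted gene derived from a retrotransposon, was at 42.6 to 136 CPM at day 4 (median 84.2) and at 8.86 to 36.5 at day 4.5 (median 18.0), without overlap (log2 change -1.90 ± 0.18, edgeR's quasi-likelihood test, adjusted p = 4.76e-11). Slc38a4, an imprinted amino acid transporter that is not in the list counted, fell by 1.74 ± 0.24 (adjusted p = 1.49e-07). In pool B of MULTI-seq 2 Peg10 changed by -1.14 ± 0.21 (adjusted p = 0.00122) and Slc38a4 by -0.57 (adjusted p = 0.184), and both changes were larger in MULTI-seq 3 by the test of the difference (adjusted p of 0.029 and 0.00909, edgeR).

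To look beneath the shares, the same test was run within cells that carried 1 name on both days, in gastruloids with at least 20 such cells. Late Posterior PSM is the posterior unsegmented mesoderm, and was tested in 13 gastruloids of day 4 and 9 of day 4.5. Its own markers, 8 genes including T, Tbx6 and Msgn1, summed to 1086 to 1259 CPM at day 4 and 987 to 1171 at day 4.5. The cells were named from expression, so this sum is a description. Here 4783 of 9181 genes (52.1%) passed edgeR's quasi-likelihood test, 2361 higher (25.7%) and 2422 lower (26.4%), and 103 (1.12%) passed with at least a 2-fold change, 28 higher and 75 lower. Thinned to the lowest total the sums gave 1103 called genes. For 1108 of the 9181 genes (12.1%) the CPM ranges of the days did not overlap. Scaled by UMI totals, 20.6% of the called genes were higher instead of 49.4%. The names come from clusters of expression, so each test within a name depends on how cells were named.

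Within Late Posterior PSM, of 10 Hox genes of groups 6 to 9, 8 rose and 1 fell (median 0.66; 7 and 1 when scaled by UMI totals), and of 15 genes of groups 1 to 5, 4 rose and 5 fell (median -0.11; 0 and 7 when scaled by UMI totals). The latter counts are near the shares of all genes called in this type, 25.7% higher and 26.4% lower, and the paralog groups were not tested against each other. Hoxc8 went from 23.1 to 80.1 CPM (median 40.8) to 83.2 to 164 (median 130), with no overlap (log2 change 1.72 ± 0.16, edgeR's quasi-likelihood test, adjusted p = 6.83e-12). Hoxc9 likewise parted the days, at 2.72 to 10.3 and then 14.6 to 39.4 (2.54 ± 0.18, adjusted p = 7.69e-15). In the opposite direction, Hoxa5 went from 27.0 to 47.3 (median 36.2) to 13.1 to 28.0 (median 18.7), with the ranges just touching (-0.78 ± 0.12, adjusted p = 6.58e-07). Hoxb5 went from 23.1 to 37.5 (median 30.4) to 8.76 to 19.6 (median 11.4) and did not overlap (-0.99 ± 0.14, adjusted p = 1.2e-07).

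Genes of the PSM and its clock were higher in 12 of 16 and lower in 1 (median 0.30; 5 and 2 when scaled by UMI totals). Genes of dissociation stress were higher in these cells too, in 7 of 12 with 1 lower (median 0.34; 2 and 2 when scaled by UMI totals), beside 25.7% of all genes. Among them Jund, an AP-1 factor, rose by 1.14 ± 0.17 (edgeR's quasi-likelihood test, adjusted p = 5.3e-07), and their part in the results within Late Posterior PSM was not tested. Mesp1, Tcf15 and Foxc2 also rose and are not in the PSM list. Somite genes were higher in 3 of 8 and lower in 1 (median -0.05), and genes of the streak and of pluripotency were higher in 1 of 8 and lower in 5 (median -0.63). The 1 higher in the latter was Mesp1, a factor of the anterior PSM where somite boundaries are set, which went from 8.15 to 46.2 CPM (median 22.7) to 27.9 to 75.0 (median 55.1), with partial overlap (log2 change 1.31 ± 0.23, edgeR's quasi-likelihood test, adjusted p = 1.07e-05). Tcf15, a factor of forming somites and one of the somite list, went from 3.85 to 122 (median 23.1) to 35.01 to 112 (median 62.4), and the widest values were those of day 4 (1.51 ± 0.29, adjusted p = 3.61e-05). Foxc2, a factor of paraxial mesoderm in the same list, rose from a median of 23.0 to 47.4 (1.12 ± 0.15, adjusted p = 3.59e-08).

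Genes of developmental timing were lower in 7 of 11 and higher in 2 (median -0.31), beside 26.4% of all genes lower and 25.7% higher. Nr6a1, a nuclear receptor known to set the trunk phase of the axis, was at 95.9 to 161 CPM at day 4 (median 130) and at 40.4 to 79.0 at day 4.5 (median 56.1). The days did not overlap, and the log2 change was -0.96 ± 0.09 (edgeR's quasi-likelihood test, adjusted p = 1.37e-11). Of 19 FGF pathway genes 6 were higher and 7 lower (3 and 10 when scaled by UMI totals), beside the same 25.7% and 26.4% of all genes. Among the lower ones Spry4, a feedback inhibitor of FGF signalling, went from 35.2 to 57.6 (median 42.2) to 9.36 to 34.2 (median 18.3), without overlap (-0.99 ± 0.12). Fst, which encodes the activin and BMP antagonist follistatin, fell from a median of 96.2 to 43.4 (-1.01 ± 0.15, adjusted p = 2.76e-07), and Pdgfra, a growth factor receptor of mesoderm, from 46.9 to 20.7 (-1.05 ± 0.11).

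Markers of other types moved in these cells. The 8 endoderm markers summed to 12.8 to 30.8 CPM at day 4 and 2.08 to 9.57 at day 4.5, and the 8 spinal cord markers to 32.7 to 90.5 and 64.4 to 132, with Olig3 at 0 on the later day. The 8 somite markers summed to 249.5 to 561 and 245 to 425, the 8 neuron markers to 70.5 to 130 and 36.4 to 87.8 with Dcx at 0 on both days, and the 8 endothelial markers to at most 3.67 CPM. Their part in the results within Late Posterior PSM was not tested.

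Mature Somites cells, the segmented paraxial mesoderm, were tested in 7 gastruloids of day 4 and 10 of day 4.5. Each of these 7 also held at least 10.36% Head Mesoderm or 15.7% Cardiopharyngeal Mesoderm among its cells. The highest shares of these 2 names at day 4.5 were 7.17% and 2.69%. The part of this difference in the results within Mature Somites was not tested. The sum of the 8 Mature Somites markers was 1042 to 1500 CPM at day 4 and 1406 to 2097 at day 4.5. Of 9782 genes, 4997 (51.1%) passed edgeR's quasi-likelihood test, 2417 higher (24.7%) and 2580 lower (26.4%), and 167 (1.71%) passed with at least a 2-fold change, 75 higher and 92 lower. After thinning 1437 genes passed, and scaled by UMI totals 21.6% of the called genes were higher instead of 48.4%. The CPM ranges of the days did not overlap for 1813 of the 9782 genes (18.5%). Spinal cord markers summed to 68.5 to 114.5 at day 4 and 17.6 to 58.1 at day 4.5, endoderm markers to 16.8 to 27.6 and 8.48 to 13.5, neuron markers to 94.5 to 122 and 44.1 to 77.2, and endothelial markers to at most 11.1 and 25.8; their part in the results was not tested. Foxa1 was the endoderm marker at 0 on the later day, and the endothelial Cdh5 was at 0 there too. Of 6 endoderm genes tested in these cells 6 were lower, and of 6 neural genes 3 were lower.

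Hox genes of low and high paralog groups rose in the somite cells. In groups 1 to 5, 10 of 12 tested rose and 1 fell (median 0.96). In groups 6 to 9, 6 of 6 tested rose (median 2.29). Of all genes 24.7% were called higher. Of the 12 genes of groups 6 to 9 only these 6 had enough UMIs to be tested, and of the 15 of groups 1 to 5 only 12. A gene low at day 4, as Hoxb9 and Hoxa5 were, can pass that filter through day 4.5 alone. Such a gene could hardly be counted as falling, so 6 of 6 and the rise of Hoxa5 are descriptions. The count of 10 of 12 has the same limit for any gene low at day 4. Hoxa5, which fell in Late Posterior PSM, rose here from 1.55 to 4.53 CPM (median 3.39) to 6.32 to 16.5 (median 10.3), with no overlap (log2 change 1.84 ± 0.21, edgeR's quasi-likelihood test, adjusted p = 5.22e-08). Hoxb4 went from 10.8 to 20.3 (median 16.1) to 24.6 to 46.7 (median 30.9), again apart (1.22 ± 0.12, adjusted p = 4.04e-09). Hoxb9 was low at day 4, with 0.445 to 3.63 (median 1.09), and stood at 0 to 23.9 at day 4.5 (median 9.39), so that some later gastruloids had not left the day 4 range (3.00 ± 0.42, adjusted p = 1.33e-06). Hotairm1, a noncoding RNA from the anterior end of the HoxA cluster, rose by 1.52 ± 0.11 (adjusted p = 9.85e-12); it lies next to Hox genes, and no source used here says whether the counting kept the strands apart, so its reads and those of its neighbours may not be told apart.

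Somite genes were higher in 10 of 17 and lower in 2 (median 0.70), and in 10 and 4 when scaled by UMI totals. Of all genes in these cells 24.7% were called higher and 26.4% lower. Meox1, a homeobox factor of somites, went from 95.5 to 257 CPM (median 139) to 320 to 442 (median 374), a gap between the days (log2 change 1.25 ± 0.14, edgeR's quasi-likelihood test, adjusted p = 2.02e-08). Its relative Meox2 went from a median of 3.39 to 22.2 (2.35 ± 0.29, adjusted p = 1.24e-07). Meox2 was low at day 4 and can pass the filter on low counts through day 4.5 alone, so its rise is a description. Of the 28 genes of the list 17 had enough UMIs to be tested, and any other gene low at day 4 has the same limit. Outside that list, Cxcl12, a chemokine, was at 9.29 to 40.3 (median 21.8) and then at 44.3 to 95.6 (median 61.4), without overlap (1.46 ± 0.18, adjusted p = 1.24e-07). Plch1, which encodes a phospholipase C, went from a median of 11.4 to 45.7 (1.63 ± 0.16, adjusted p = 4e-09).

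Among the genes that fell in the somite cells, Irx3, an Iroquois homeobox factor, went from 46.7 to 86.0 CPM (median 75.2) to 10.8 to 38.5 (median 21.5), without overlap (log2 change -1.50 ± 0.13, edgeR's quasi-likelihood test, adjusted p = 2.77e-10). Its neighbour Irx5 went from a median of 68.6 to 25.9 (adjusted p = 2.85e-09). Tbx1, a T-box factor of pharyngeal and head mesoderm, went from 69.5 to 106 (median 93.8) to 13.8 to 55.6 (median 36.3), also apart (-1.13 ± 0.13, adjusted p = 6.1e-08). The day 4 gastruloids tested here were those rich in Head or Cardiopharyngeal Mesoderm, whose part in the fall of Tbx1 was not tested. Nr6a1 went from 143 to 162 (median 147) to 49.0 to 83.8 (median 59.9), with a wide gap (-1.07 ± 0.06, adjusted p = 1.84e-13), and 8 of 12 developmental timing genes fell with 1 higher (median -0.33). Of 29 glycolysis and hypoxia genes, 13 were lower and 4 higher (19 and 1 when scaled by UMI totals), beside 26.4% of all genes lower and 24.7% higher. In Late Posterior PSM 5 of 27 genes of that list were lower and 10 higher (7 and 2 when scaled by UMI totals). Irx3 is also one of the spinal cord markers whose sum fell in these cells.

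Whether the change between the days was unlike in the 2 mesodermal types was tested directly, each gastruloid against itself, in the 6 gastruloids of day 4 and 9 of day 4.5 that had both. This edgeR test called 389 of 9867 genes (3.94%), 218 with a more positive change in Mature Somites and 171 with a more negative one. Hoxa5 differed by 2.68 on the log2 scale (adjusted p = 1.46e-08), Hoxb5 by 2.32 (adjusted p = 2.52e-05) and Hoxb4 by 1.29 (adjusted p = 4.23e-07), each more positive in Mature Somites. Fst fell in Late Posterior PSM and rose in Mature Somites, from 159 to 649 CPM (median 242) to 408 to 910 (median 621), and the difference was 2.07 (adjusted p = 1.1e-06). Plch1 differed by 2.58 (adjusted p = 1.36e-08), Irx3 by -1.51 (adjusted p = 3.21e-06) and Mesp1 by -1.35 (adjusted p = 0.00952). Foxc2 changed by 1.12 in Late Posterior PSM and by 0.05 in Mature Somites, and that difference passed (-0.71, adjusted p = 0.000489).

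**Figure D3:**
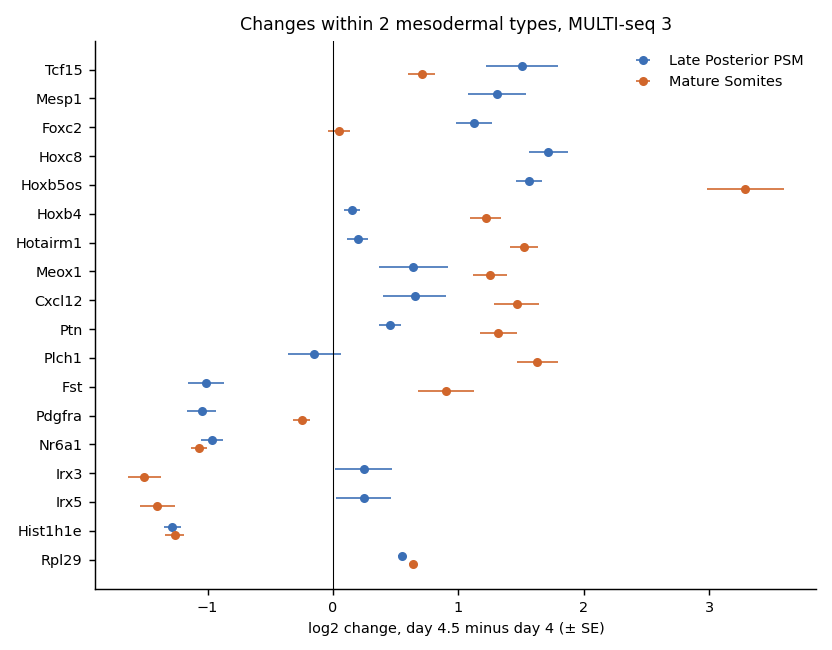
Log2 change, day 4.5 minus day 4, with its standard error (x axis), for named genes (rows) within Late Posterior PSM (blue) and Mature Somites (orange) cells of MULTI-seq 3. Fst lies at -1.01 in blue and 0.90 in orange, Irx3 at 0.24 and -1.50, while Nr6a1 and Hist1h1e lie close together in both.

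Mature Endoderm cells, the gut-like epithelium, could be tested only against 2 gastruloids of day 4.5, with 42 and 21 cells, beside 13 of day 4. Of 11561 genes 1463 (12.7%) passed edgeR's quasi-likelihood test, and leaving out the first or the second of these 2 gastruloids left 265 and 910, and thinning left 72. Without either, day 4.5 was 1 gastruloid, which that fit takes to vary like those of day 4. Their 8 markers summed to 3547 to 5637 CPM at day 4 and to 3675 and 5125 at day 4.5. Spinal cord markers summed to 21.9 to 59.2 and then 38.0 and 103, and endothelial markers, some of which epithelia share, to 30.2 to 205 and then 52.8 and 163. With TMM scaling, of 23 endoderm genes 5 rose and 0 fell, against a background of 6.57% called higher and 6.09% lower. Scaled by UMI totals, 29.6% of the genes called in these cells were higher instead of 51.9%. Shh, the hedgehog ligand of gut endoderm, was at 1.66 to 24.5 at day 4 (median 6.08) and at 73.3 and 53.0 at day 4.5, above every earlier gastruloid (log2 change 2.70 ± 0.60, adjusted p = 0.00581). Krt19, a keratin of simple epithelia, was at 9.14 to 28.7 (median 17.6) and then at 102 and 78.4 (2.25 ± 0.23, adjusted p = 1.89e-05).

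Vtn, which encodes vitronectin, rose in the endoderm cells from 2.44 to 35.7 CPM (median 8.62) to 120 and 69.2 (2.74 ± 0.54, adjusted p = 0.00247), and Upk3a, a uroplakin of epithelia, from 4.97 to 19.5 (median 8.79) to 59.8 and 83.0 (2.79 ± 0.34, adjusted p = 6.2e-05; edgeR's quasi-likelihood test). Cdx2, the caudal factor of hindgut, went from 9.66 to 60.5 (median 37.1) to 90.1 and 150 (1.90 ± 0.40, adjusted p = 0.0042). In the other direction Lhx1 was at 45.4 to 237 (median 127) and then at 19.6 and 42.7 (-2.18 ± 0.66, adjusted p = 0.0362), and Dnmt3b, a DNA methyltransferase of early embryonic cells, at 86.9 to 384 (median 211) and then at 41.6 and 79.6 (-1.80 ± 0.52, adjusted p = 0.0286). Both later gastruloids lay outside the earlier range for Vtn, Upk3a, Cdx2, Lhx1 and Dnmt3b. With only 2 gastruloids at day 4.5, the days did not overlap for 2403 of the 11561 genes tested (20.8%).

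A group of genes with other roles separated the days in each type looked at, the linker histones. Histone H1 proteins bind the DNA between nucleosomes and compact chromatin, and their replication-dependent genes lie in the large histone cluster and make RNAs that mostly lack a poly(A) tail. The group was chosen after its values were seen. All 5 of the measured Hist1h1 genes, Hist1h1a to Hist1h1e, were lower at day 4.5 in whole gastruloids (median log2 change -0.85), in Late Posterior PSM (-1.04), in Mature Somites (-1.08), in Mature Endoderm (-1.33) and in NMPs (-1.05). Of all genes, 33.8% were called lower in whole gastruloids, 26.4% in Late Posterior PSM, 26.4% in Mature Somites and 6.09% in Mature Endoderm. The NMP test used 9 and 8 gastruloids and called 2838 of 7548 genes (37.6%), 18.9% higher and 18.7% lower, but 1288 without lane A of day 4.5, 1309 with a minimum of 50 cells and 1137 after thinning the sums to the lowest total. Their promoters are printed because the 5 genes moved together; the capitals mark AAACACA, known as the H1 box, and CCAAT, known as the CCAAT box, each searched on both strands in the RefSeq sequence of build GRCm38.p6. Each line gives the 130 bases before the annotated start, read 5′ to 3′ along the gene.

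Hist1h1a (RefSeq H1f1, chr13:23763538-23763667, plus strand): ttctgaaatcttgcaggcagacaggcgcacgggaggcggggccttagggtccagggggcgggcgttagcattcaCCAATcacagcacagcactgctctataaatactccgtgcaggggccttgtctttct
Hist1h1b (RefSeq H1f5, chr13:21780626-21780755, minus strand): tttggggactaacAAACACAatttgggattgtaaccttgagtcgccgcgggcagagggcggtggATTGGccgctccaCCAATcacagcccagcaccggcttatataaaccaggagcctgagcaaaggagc
Hist1h1c (RefSeq H1f2, chr13:23738677-23738806, plus strand): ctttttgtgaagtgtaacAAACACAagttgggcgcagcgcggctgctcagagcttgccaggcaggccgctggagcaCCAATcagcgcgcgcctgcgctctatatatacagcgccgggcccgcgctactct
Hist1h1d (RefSeq H1f3, chr13:23554902-23555031, plus strand): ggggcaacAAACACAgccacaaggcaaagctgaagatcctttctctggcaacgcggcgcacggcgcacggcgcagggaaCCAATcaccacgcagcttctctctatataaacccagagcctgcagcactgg
Hist1h1e (RefSeq H1f4, chr13:23622559-23622688, minus strand): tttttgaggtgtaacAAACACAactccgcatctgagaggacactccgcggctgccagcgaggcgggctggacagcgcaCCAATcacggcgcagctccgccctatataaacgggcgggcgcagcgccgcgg

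CCAAT lay 51 to 56 bases before the start in all 5, and AAACACA lay 112 to 122 bases before it in 4 of 5, Hist1h1a being the one without these letters; the capital ATTGG of Hist1h1b is CCAAT on the other strand. Of 32851 RefSeq promoter windows of 300 bases, 7.18% held AAACACA, 37.4% held CCAAT and 2.67% held both. A match describes the letters only.

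Hist1h1e was at 562 to 685 CPM in the day 4 gastruloids (median 635) and at 200 to 269 at day 4.5 (median 246). The ranges were far apart and each was narrow (log2 change -1.19 ± 0.04, edgeR's quasi-likelihood test, adjusted p = 1.06e-21). Within Late Posterior PSM it changed by -1.28 ± 0.07, within Mature Somites by -1.26 ± 0.08 and within NMPs by -1.47 ± 0.11. Hist1h1c was at 56.5 to 73.2 (median 66.7) and then at 15.2 to 25.5 (median 21.3), equally apart (-1.43 ± 0.05, adjusted p = 1.06e-21). The replication-independent linker histone H1f0, also looked up after these values were seen, changed by 0.06 and did not pass (adjusted p = 0.682). Among the 55 tested genes whose symbols start with Hist, a set also formed after values were seen, 27 were lower and 12 higher (median -0.16; 34 and 7 when scaled by UMI totals, median -0.36), beside 33.8% of all genes lower and 32.4% higher.

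Ribosomal protein genes moved the other way. Of 81 tested, 80 were higher at day 4.5 and 0 lower in whole gastruloids (median log2 change 0.34; 66 and 4 when scaled by UMI totals, median 0.14), 79 were higher in Late Posterior PSM (median 0.35) and 79 in Mature Somites (median 0.36). Scaled by UMI totals, 72 were higher and 3 lower in Late Posterior PSM (median 0.15), and 73 and 2 in Mature Somites (median 0.18). In Mature Endoderm 49 were higher and 0 lower (median 0.18; 28 and 1 when scaled by UMI totals). Of all genes, 32.4% were called higher in whole gastruloids, 25.7% in Late Posterior PSM, 24.7% in Mature Somites and 6.57% in Mature Endoderm. Genes with symbols starting Rpl, Rps or Rplp and a digit, a similar but not identical set, were taken as a share of each cell's UMIs. Each gastruloid was given the median over its cells. That share was higher at day 4.5, with ranges that met only at their ends. The means were 28.9% ± 0.495 and 32.0% ± 0.715 (n = 16 each, two-sided permutation test, p = 1e-05, the smallest that 100000 resamples can give). Rpl29, a protein of the large subunit, was at 448 to 502 CPM (median 489) and then at 547 to 662 (median 624), without overlap (0.55 ± 0.02, edgeR's quasi-likelihood test, adjusted p = 4.08e-19). Mitochondrial UMIs, as the same median over cells, went from 2.21% ± 0.09 to 1.96% ± 0.12 (permutation test, n = 16 each, p = 1e-05). Of 13 mitochondrially encoded genes 5 were higher and 5 lower in whole gastruloids, near the 32.4% and 33.8% of all genes. In pool B of MULTI-seq 2 mitochondrial UMIs stood higher on both days, at 5.43% ± 0.21 and then 5.10% ± 0.16 (permutation test, n = 11 and 12, p = 0.00029). UMIs per cell went there from 27980 to 25502 (means over gastruloids, permutation test, p = 0.00394).

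The H1 and the ribosomal protein genes behaved differently where the days shared a pool. In whole gastruloids of MULTI-seq 2, 0 of the 5 H1 genes passed (median -0.11) and 18 of 81 ribosomal protein genes were lower with 0 higher (median -0.06), where 7.36% of all genes passed, 3.03% higher and 4.33% lower. Hist1h1e stood there at 110 to 146 CPM on day 4 and 106 to 131 on day 4.5, overlapping almost wholly (log2 change -0.11 ± 0.05, edgeR's quasi-likelihood test, adjusted p = 0.194), and Rpl29 changed by -0.02. The test of the difference between the experiments, which called 33.9% of 12551 genes, called all 5 H1 genes in whole gastruloids, with Hist1h1e at -1.09 ± 0.07 (adjusted p = 5.79e-20), and 80 of 81 ribosomal protein genes, with Rpl29 at 0.56 (adjusted p = 1.48e-18). Within Late Posterior PSM 1 of the 5 H1 genes was lower in MULTI-seq 2 (median -0.49), where 0.846% of all genes passed, and the test of the difference, which called 18.1% of genes, called 2 of 5 (median -0.59). Within Mature Somites 0 of 5 passed in MULTI-seq 2 (median 0.09), where 0.888% of all genes passed, and the test of the difference, which called 20.3%, called 5 of 5 (median -1.16). Ribosomal protein genes in MULTI-seq 2 were lower in 3 of 81 in the first type and 9 of 81 in the second, with 0 higher in either. Scaled by UMI totals, 14.7% of the genes called in the whole-gastruloid test were more positive in MULTI-seq 3, instead of 51.4%.

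The steps between the 2 days inside each pool of MULTI-seq 3 share their gastruloids with the main comparison, so their values are only set beside it. Hist1h1e changed by 0.10 from day 3.5 to day 4 and by -0.09 from day 4.5 to day 5, Hist1h1c by 0.05 and 0.06, and Rpl29 by 0.08 and 0.03. From day 3.5 to day 4, where 60.4% of all genes passed, 3 of the 5 H1 genes were lower and 1 higher (median -0.13), and 25 of 81 ribosomal protein genes were lower and 3 higher (median -0.04). From day 4.5 to day 5, where 13.5% passed, 0 of the 5 H1 genes passed (median 0.01), and 7 ribosomal protein genes were lower and 1 higher (median -0.01). Hoxc10 by comparison changed by a further 2.75 from day 4.5 to day 5, and Pou5f1 by -2.62 from day 3.5 to day 4.

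**Figure D4:**
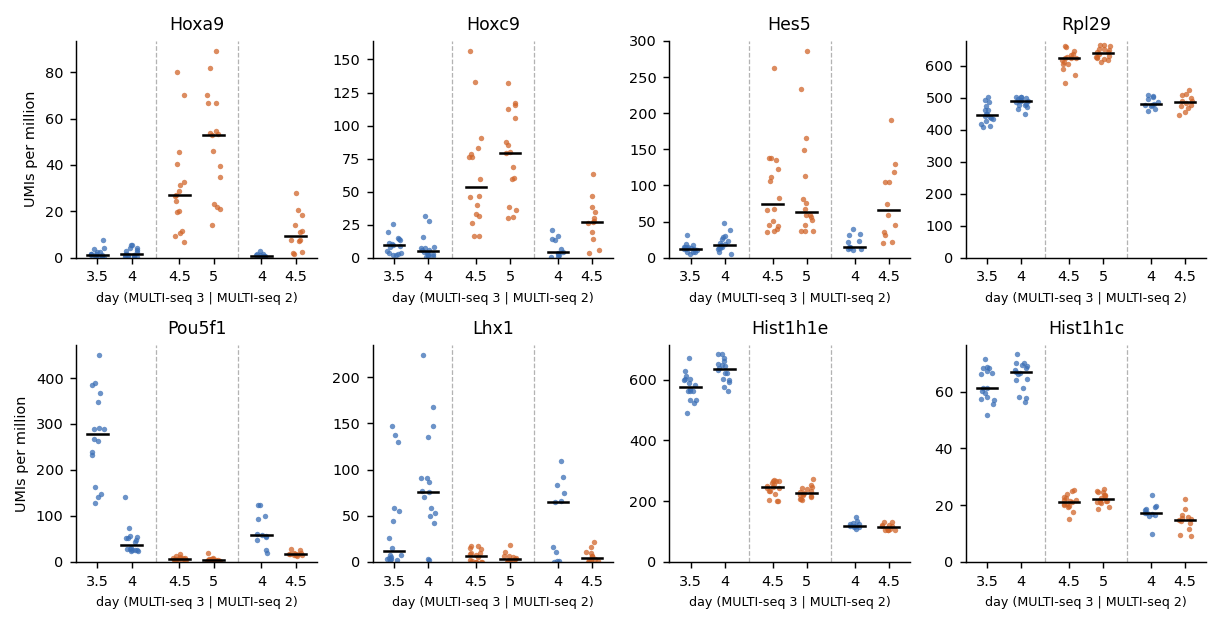
Level in CPM, shown as UMIs per 1000000 (y axis, from 0) of 8 genes in each gastruloid (points; the black bar is the median) at days 3.5, 4, 4.5 and 5 of MULTI-seq 3 and days 4 and 4.5 of MULTI-seq 2 (x axis); dashed lines part the pools. Hist1h1e sits at 562 to 685 on day 4 and 200 to 269 on day 4.5 of MULTI-seq 3 but at 106 to 146 on both days of MULTI-seq 2, whereas Hoxa9 and Hes5 are higher at day 4.5 in both experiments.

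Over all genes, the same interval gave smaller and fewer differences in the shared pool. In MULTI-seq 2, 814 of 11064 genes passed edgeR's quasi-likelihood test, in gastruloids of fewer cells; 340 passed without lane 3 and 535 without lane 2, and 123 after thinning. The whole-gastruloid count of MULTI-seq 3 was 4550 after thinning. Each experiment was thinned to its own lowest total, 4193451 UMIs in MULTI-seq 3 and 1766803 in MULTI-seq 2. The 2 thinned counts are therefore not at the same depth, nor do they come from the same number of gastruloids. Of 11062 genes tested in both experiments, 7605 were called in MULTI-seq 3 and 814 in MULTI-seq 2, and 596 were called in both with the same sign, which is 7.84% of the first list and 73.2% of the second. A further 75 were called with opposite signs. Among genes tested in both experiments within Late Posterior PSM, 30 were called in both with the same sign and 10 with opposite signs (the 30 are 52.6% of the second list and 0.743% of the first), and within Mature Somites 32 and 21 (the 32 are 40% and 0.669%). Without lane 2, 2 and 8 genes passed in these types of MULTI-seq 2, and without lane 3, 3 passed in Mature Somites. In whole gastruloids the median absolute log2 change was 0.260 in MULTI-seq 3 and 0.102 in MULTI-seq 2. In whole gastruloids, 389 of the 675 genes called in MULTI-seq 3 with at least a 2-fold change were also tested in MULTI-seq 2, and 119 of the 389 (30.6%) were called there with the same sign.

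Pou5f1 changed by -2.43 and -1.92 in MULTI-seq 3 and 2, Lhx1 by -3.44 and -2.73, Hes5 by 2.35 and 1.92 and Mesp1 by -1.88 and -1.58, and the 4 passed edgeR's test in both (adjusted p in MULTI-seq 2 of 4.23e-05, 0.00632, 0.00223 and 0.0428). Fn1, which encodes the matrix protein fibronectin, changed by -1.73 ± 0.31 (adjusted p = 9.6e-06) and -0.94 (adjusted p = 0.158), and the test of the difference did not pass (-0.80 ± 0.50, adjusted p = 0.235). Within Late Posterior PSM of MULTI-seq 2, where 0.846% of genes passed, Mesp1 changed by 1.83 (adjusted p = 0.00881) and Tcf15 by 1.93 (adjusted p = 0.0012), both upward, but without lane 2 the 2 genes that passed there were both lower, so neither call was kept. Hoxc8 changed there by 0.49 (adjusted p = 0.267), and its change was larger in MULTI-seq 3 by the test of the difference (1.22, adjusted p = 0.0123), which called 18.1% of genes. Within Mature Somites of MULTI-seq 2, where 0.888% of genes passed, Nr6a1 changed by -0.13, and its change was more negative in MULTI-seq 3 by 0.93 on the log2 scale (adjusted p = 8.06e-07), with 20.3% of all genes called in that test. Meox1 changed by 0.45 there (adjusted p = 0.335), and the difference between the experiments was 0.80 (adjusted p = 0.0268).

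**Figure D5:**
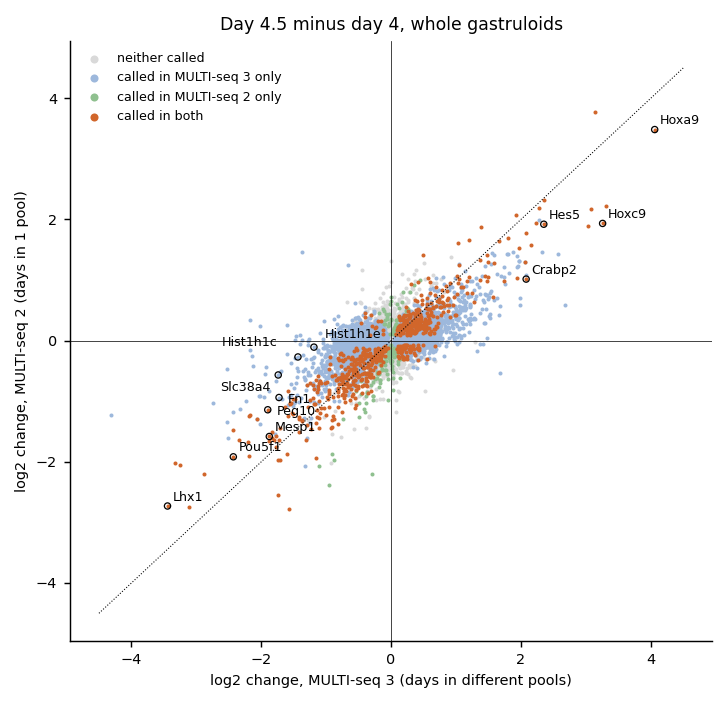
Log2 change, day 4.5 minus day 4, of whole gastruloids in MULTI-seq 3 (x axis) against MULTI-seq 2 pool B (y axis); each point is 1 of 11062 genes tested in both, coloured by where it was called, and the dotted line marks equal change. Hoxa9, Pou5f1 and Lhx1 lie far from 0 on both axes, while Hist1h1c and Hist1h1e lie near 0 on the y axis only.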

How the data were processed

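Single-cell RNA libraries (10x Chromium) of barcoded gastruloids were analysed from the deposited matrices, whose values are UMI counts per gene and cell, made by the authors with Cell Ranger 6.0.0 and build mm10 per the submitters' processing notes, which also name Seurat. Day, gastruloid barcode, cell type name and other labels of each cell came from the authors' deposited cell table; no source used here gives the steps behind its cell filter and names.

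UMI counts were summed per gastruloid over the lanes of its pool, whole (at least 30 cells) or within a cell type name (at least 20 cells). Doublet and negative calls of the MULTI-seq barcode were left out. Sums were tested with edgeR 4.0.16 in R 4.3.3 (filterByExpr, TMM, quasi-likelihood test, Benjamini-Hochberg adjustment over all genes tested, called at an adjusted p under 0.05). Standard errors are the log2 change divided by the root of the F statistic. Levels are CPM, UMIs per 1000000 of the plain sums. Shares were compared by two-sided permutation tests with 100000 resamples, in Python 3.11.15. Because gastruloids of day 4 had more cells and larger sums than those of day 4.5, sums thinned to the lowest total were one alternative, beside DESeq2 1.42.0, UMI totals as scaling, no filter, other minimums of cells, and leaving out lanes and gastruloids. The fits were tested on simulated data.

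Named genes are the 12 highest and 12 lowest called changes of a comparison with a mean of at least 30 CPM in the higher day, up to 4 called genes of each list, the Hox genes and the cell type markers. The members and lists were chosen with earlier results of these data known. NMPs, the types within MULTI-seq 2, the H1 genes and the Hist set were added after values were seen.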

Additional observations from a re-analysis of the deposited data

Results flagged for a closer look

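Values of a single gastruloid stood far from the others of their group for 5 genes, among 72 groups of 4 to 10 gastruloids looked at, of which chance gives about 1 in 20. In Mature Somites, Nnat, an imprinted gene, reached 158 CPM in 1 gastruloid of day 4 and 373 in 1 of day 4.5, AY036118 reached 253 in 1 of day 4, Aplnr, the apelin receptor, 21.8 in 1 of day 4.5, and Ptn, a growth factor, had its lowest day 4.5 value at 790. In Late Posterior PSM, Hist1h1c stood at 32.6 in 1 gastruloid of day 4.5.

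The change from day 4 to day 4.5 differed between MULTI-seq 3 and MULTI-seq 2 by edgeR's test of the difference itself for a number of named genes. The values are log2 differences, MULTI-seq 3 minus MULTI-seq 2. In whole gastruloids Peg10 differed by -0.77 and Slc38a4 by -1.18. In Late Posterior PSM the change was more positive in MULTI-seq 3 for Hoxc8 (1.22) and Mgst1 (1.04). It was more negative there for AY036118 (-1.38), Hist1h1c (-0.93), Hist1h1e (-1.17), Dsp (-1.08), Usp24 (-0.84) and Pik3c2b (-1.44). In Mature Somites it was more positive for Plch1 (1.24), Nnat (2.00), Hotairm1 (0.82), Ptn (0.79), Selenop (1.09), Meox1 (0.80) and Hoxb4 (0.95). The more negative ones were Fhdc1 (-1.38), Irx3 (-0.97), AY036118 (-1.38), Irx5 (-1.08), Hist1h1c (-1.27), Hist1h1e (-1.35), Dock4 (-1.13), Cgnl1 (-1.36) and Peg10 (-1.15). Experiment, culture and pool cannot be told apart in these differences.

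The change also differed between the 2 mesodermal types of MULTI-seq 3 by the edgeR test within gastruloids, given as Mature Somites minus Late Posterior PSM. More positive in Mature Somites were Hoxb5os (1.97), S100a10 (1.14), Pdgfra (0.70), Fst (2.07), Plch1 (2.58), Hotairm1 (1.12), Cxcl12 (1.48), Ptn (1.19), Nrtn (1.602), Selenop (1.25), Meox1 (1.34) and Hoxb4 (1.29). More negative there were Mesp1 (-1.35), Foxc2 (-0.71), Mthfd2 (-1.06), Acot7 (-1.18), Irx3 (-1.51), Irx5 (-1.62), Dock4 (-0.91) and Cgnl1 (-1.05). Hoxb5os overlaps Hox genes of the other strand, and reads of the 2 strands may not be told apart.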

How the results depend on the processing

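Thinning each sum to the lowest total lowered the counts of genes called, to 4550 in whole gastruloids, 1103 in Late Posterior PSM, 1437 in Mature Somites, 72 in Mature Endoderm and 1137 in NMPs, and in MULTI-seq 2 to 123 whole, 19 in Late Posterior PSM and 27 in Mature Somites. These sums hold fewer UMIs by construction, and each comparison was thinned to its own lowest total. A minimum of 50 cells left 1309 genes in NMPs and 2 in Mature Somites of MULTI-seq 2. With no filter on low counts 148 and 221 were called in Late Posterior PSM and Mature Somites of MULTI-seq 2, and the cause was not tested. DESeq2 called 8625, 4548, 4596 and 1335 genes in whole gastruloids, Late Posterior PSM, Mature Somites and Mature Endoderm.

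Leaving out 1 lane gave 8040 to 8405 genes in whole gastruloids, 4105 to 4658 in Late Posterior PSM, 4421 to 4909 in Mature Somites, 1288 (without lane A of day 4.5) to 2616 in NMPs, and 10 to 11 cell type names; single gastruloids were not left out there. Leaving out 1 lane or 1 gastruloid gave 265 to 1566 in Mature Endoderm. For Mature Endoderm, leaving out lanes A, B and C of day 4.5 gave 412, 840 and 905. In MULTI-seq 2 the range was 340 (without lane 3) to 535 (without lane 2) in whole gastruloids, and, over lanes and single gastruloids, 2 to 69 in Late Posterior PSM and 3 to 128 in Mature Somites, so counts within types of that experiment rest on few gastruloids.

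Turns of direction were looked for only among named genes called in the main fit. With the share of neural cells as a covariate the log2 change of 3 such genes in whole gastruloids turned, Kdr to 0.039, Mesp2 to 0.053 and Irx3 to -0.24. Scaled by UMI totals, Hoxb4 and Dll1 in Late Posterior PSM turned to -0.049 and -0.094. After thinning, Hotairm1 in Late Posterior PSM turned to -0.074 and Ier2 in Mature Somites to -0.022; the cause was not tested.

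No paired analysis was possible because each gastruloid was sampled on 1 day and lane letters are technical splits of a pool. The minimum of 50 cells was not run in Mature Endoderm or in Late Posterior PSM of MULTI-seq 2, nor the latter without lane 3. Mature Endoderm had the fewest gastruloids, 2 at day 4.5 with 42 and 21 cells.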

Other observations

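NMPs, the bipotent progenitors of the growth zone, were added after the numbers of cells per type were seen. In these cells 78 of 81 ribosomal protein genes rose and 0 fell (median log2 change 0.29), and 5 of 11 Hox genes of paralog groups 6 to 9 rose and 1 fell, by edgeR's quasi-likelihood test, in which 18.9% of 7548 genes were called higher. These counts hold for TMM scaling. Scaled by UMI totals, 21.5% of the genes called in NMPs were higher instead of 50.2%. Hoxd9 changed by 0.60 ± 0.17 in NMPs (adjusted p = 0.00698), by 0.15 ± 0.12 in Late Posterior PSM (adjusted p = 0.297) and by 1.68 ± 0.24 in Mature Somites (adjusted p = 1.77e-06).

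Myc, which encodes a growth-promoting transcription factor, was chosen after its values were seen. In Mature Somites it stood at 4.12 to 7.57 CPM at day 4 (median 5.44) and at 11.9 to 36.6 at day 4.5 (median 18.0), without overlap (log2 change 2.13 ± 0.19, edgeR's quasi-likelihood test, adjusted p = 6.54e-10). In Late Posterior PSM its ranges overlapped (0.19 ± 0.15, adjusted p = 0.282), and the test of the difference between the types gave 1.73 ± 0.28 (adjusted p = 4.8e-05).

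The authors' cell table also gives, for each cell, the stage of the mouse embryo reference onto which it was mapped. In whole gastruloids the mean share of cells mapped to stage E8.5 was 14.1% at day 4 and 27.5% at day 4.5, and that of stage E8.0 was 31.9% and 16.4%. Within Mature Somites the share mapped to E9.25 was 27.7% at day 4 and 10.7% at day 4.5, and that of E8.5 was 9.55% and 27.0%. These shares were not tested.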
